A study of Mus musculus with 2 samples.

Results

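A set of 33 genes of tissue macrophages and their relatives was examined in mouse colon, read as probe sets (groups of short oligonucleotides that together report 1 transcript) on an Affymetrix expression array. Members were taken by gene symbol from a fixed list, and all 33 had at least 1 probe set that the platform annotation gives to them alone, 48 probe sets in all, out of 12393 genes on the array with such a probe set. A subset of 5 members, Arg1, Retnla, Chil3, Mrc1 and Clec10a, are genes of alternative activation and are described apart from the other 28. The study has 2 arrays. One array carries RNA of wild-type FVB mice and the other RNA of IL-9 transgenic mice, whose sample is titled Tg5. The series' design text writes the wild-type strain as TVB where the sample labels have FVB. Each array was hybridised with a pool of RNA from 4 mice, taken from a piece of distal colon, and both groups were kept under specific pathogen-free conditions. Age, sex and the promoter that drives the transgene are not given in the sources used here.

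Macrophages of the gut wall descend largely from blood monocytes, live under the epithelium and in the muscle layer, and clear bacteria and dying cells. They depend on the growth factor receptor that Csf1r encodes. In type 2 immunity, interleukin-4 and interleukin-13 act through the transcription factor STAT6 to bring macrophages into the state called alternative activation, for which arginase 1 (Arg1), the secreted proteins RELMα (Retnla) and Ym1 (Chil3), and the lectin receptors CD206 (Mrc1) and MGL1 (Clec10a) are the standard markers in mice. Interleukin-9 belongs to the same group of cytokines, and the comparison asks how these genes differ in a colon in which IL-9 is produced from a transgene.

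As DNA context for the alternative activation markers, the bases upstream of the gene start were read from RefSeq (GRCm38.p6), which held such a window for 24 of the 33 members and none for Adgre1, Csf1r, C1qa, Cd14, Clec10a, Clec4n, Msr1, Arg1 and Siglec1. The windows of 250 bases were searched on both strands for the STAT6 motif (TTC and GAA with any 4 bases between them), the general STAT motif (the same with any 3 bases between), the PU.1 motif GAGGAAGT and the C/EBP motif TTGCNNAA, where N is any base. The STAT6 motif was found in windows of 3 of the 24 members, Retnla, Clec7a and Ms4a7, and in 5.85% of all 32851 windows of this length. Of the other alternative activation markers with a window, Mrc1 had no match to any of the motifs. Chil3 had a general STAT match alone, beginning 172 bases before the start. Those 3 windows are shown because Retnla and Clec7a had the largest ratios among the measured members, while Ms4a7 had a ratio below 1. Each window is written 5′ to 3′ on the strand of its gene and ends at the base before the gene start, with motif matches in capitals.
Retnla, chr16:48842359-48842608, plus strand: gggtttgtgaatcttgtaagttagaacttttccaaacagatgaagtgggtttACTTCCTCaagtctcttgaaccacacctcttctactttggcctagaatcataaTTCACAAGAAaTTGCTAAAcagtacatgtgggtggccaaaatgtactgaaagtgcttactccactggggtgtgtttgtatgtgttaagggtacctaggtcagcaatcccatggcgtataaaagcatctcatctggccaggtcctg
Clec7a, chr6:129472780-129473029, minus strand: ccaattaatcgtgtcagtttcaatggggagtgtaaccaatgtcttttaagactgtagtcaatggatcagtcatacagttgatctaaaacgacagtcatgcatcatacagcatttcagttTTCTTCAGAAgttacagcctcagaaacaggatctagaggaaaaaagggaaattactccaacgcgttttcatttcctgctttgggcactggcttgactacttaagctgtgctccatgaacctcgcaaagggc
Ms4a7, chr19:11336147-11336396, minus strand: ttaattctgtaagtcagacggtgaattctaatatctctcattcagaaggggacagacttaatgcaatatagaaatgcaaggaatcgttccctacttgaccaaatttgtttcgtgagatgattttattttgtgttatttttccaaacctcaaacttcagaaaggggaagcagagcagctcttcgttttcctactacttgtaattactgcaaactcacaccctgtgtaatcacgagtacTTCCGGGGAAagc
In the Retnla window the capitals mark, in this order, a PU.1 match read on the opposite strand, a STAT6 match beginning 145 bases before the start and a C/EBP match beginning 134 bases before it, and these matches do not overlap. In the Clec7a and Ms4a7 windows the capitals mark a STAT6 match, beginning 131 and 13 bases before the start. The window of Clec7a shown is the first of a pair that RefSeq lists, both of which hold the match, and Ms4a7 has another window without one. PU.1, C/EBP and general STAT matches lay in 2.44%, 9.56% and 7.02% of all windows, and in windows of 2, 4 and 2 of the 24 members. The shares are per window and the counts per member, and some members have more than 1 window, so they are not directly comparable. A match is a stretch of letters, and binding was not measured here.

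Values are intensities as the authors deposited them, on a linear scale. A floor of 19.8 was set at the 40th percentile of all probe sets, a gene was called measured when its brightest probe set exceeded the floor on at least 1 array, and lower values were set to the floor before ratios of the transgenic to the wild-type pool were taken on the log2 scale. With 1 pool per genotype there is no replicate spread, so no test was run and no difference below has a replicate check. The only yardstick is technical: the log2 ratios of different probe sets of 1 gene had a pooled SD of 0.28 (2847 genes), which contains no spread between mice. Il9 itself read 5.14 in the wild-type pool, under the floor, against 862 in the transgenic pool, a difference of at least 43.6-fold. Markers of colon epithelium, the labelled tissue, were present in both pools, with 13 of 13 on the array measured and a median log2 ratio of −0.02. Of these, 0 were 1.5-fold different, beside 4.09% of all measured genes higher and 2.85% lower by that factor. Of 8 defining macrophage markers (Adgre1, Csf1r, Cd68, C1qa, C1qb, C1qc, Cd163 and Mrc1), all were above the floor on both arrays.

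Macrophage genes differed little between the genotypes. Of the 28 members outside the alternative activation set 24 were measured, and their log2 ratios ran from −0.43 to 0.67 with a median of 0.24, beside a median of 0.04 over all 8346 measured genes. A ratio above 1 was found for 19 of the 24, beside 56.0% of all measured genes. Only Clec7a was at least 1.5-fold higher, 1 of 24 beside 4.09% of all genes, and 0 members were at least 1.5-fold lower, beside 2.85%. With bounds counted as they stand, none of these 24 reached 2-fold in either direction, which 0.767% of all genes did upward and 0.611% downward. For 4 of the 24, Clec7a, Msr1, Aif1 and Flt3, the ratio is a bound, so a larger difference is possible. With the floor at the 20th percentile Clec7a had a log2 ratio of 1.34, past 2-fold, and Flt3 −0.98. For 16 of the 24 the log2 ratio was smaller in size than the pooled SD between probe sets, as it was for 68.5% of all genes. Aif1, Flt3 and Msr1 count among these 16 at their bounds. When all probe sets of a gene were averaged instead, the median of the 24 was 0.11, and with only the 20 members above the floor on both arrays 0 reached 1.5-fold. The RNA came from whole tissue, so more macrophages and more RNA per macrophage cannot be told apart.

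**Figure D1:**
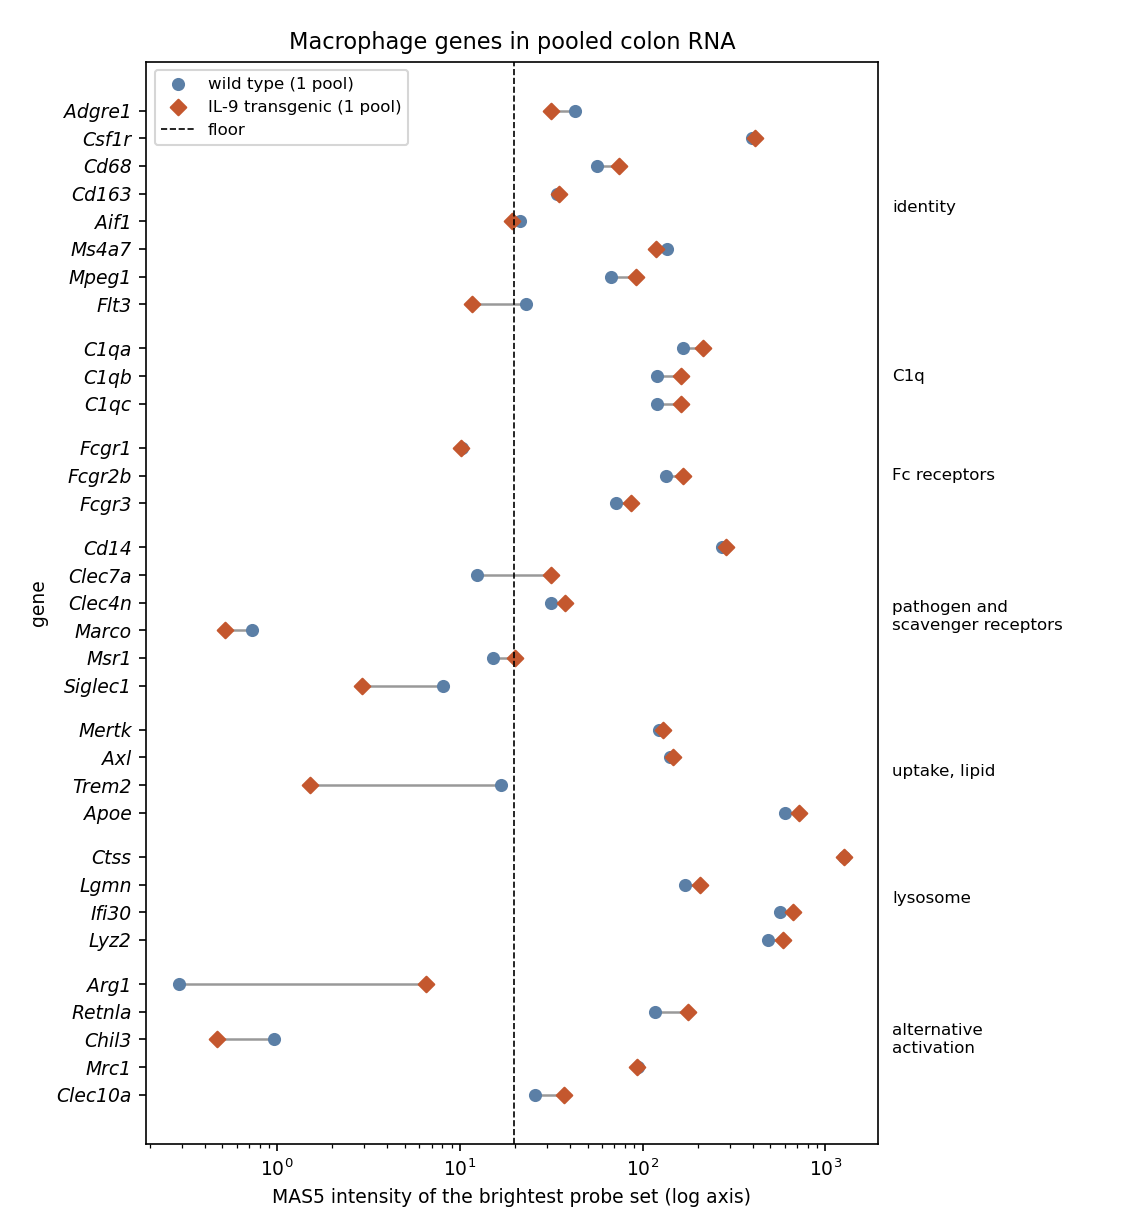
Intensity of the brightest probe set of each of the 33 genes (horizontal log axis, MAS5 intensity) in the wild-type pool (circles) and the IL-9 transgenic pool (diamonds), 1 array each, with genes grouped by role and the floor of 19.8 as a dashed line. For most genes the symbols lie close together, and 6 genes lie left of the floor in both pools.

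The genes that define the lineage gave ratios on both sides of 1. Csf1r (1419872_at), the receptor for the macrophage growth factors CSF1 and IL-34, read 395 in the wild-type pool and 414 in the transgenic pool, a log2 ratio of 0.07. Its 2 other probe sets gave 0.10 and 0.03, so all 3 readings of this receptor lay near 0. Adgre1 (1451161_a_at), which encodes the surface antigen F4/80, had 42.6 in the wild-type pool and 31.5 in the transgenic pool, a log2 ratio of −0.43 and the lowest among the measured members. Cd68 (1449164_at), a glycoprotein of macrophage lysosomes, went the other way, from 56.5 in the wild-type pool to 73.8 in the transgenic pool, a log2 ratio of 0.39. The markers F4/80 and CD68, both commonly used to stain macrophages, thus gave opposite signs in the same pair of pools, each from a single probe set.

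Other identity genes were split in the same manner. Mpeg1, the pore-forming protein perforin-2 of macrophages, had 66.8 in the wild-type pool and 92.3 in the transgenic pool, 1.38-fold higher. Ms4a7, a membrane protein of the CD20 family found on macrophages, had 137 and 119, a log2 ratio of −0.20. Cd163, the scavenger receptor for haemoglobin bound to haptoglobin, had 34.0 and 34.7, a log2 ratio of 0.03, so its level was nearly equal in both pools. Aif1, which encodes the actin-binding protein IBA1, had 21.3 and 19.4, and Flt3, the growth factor receptor of dendritic cell precursors, 23.0 and 11.6. Both were under the floor in the transgenic pool, so their ratios are bounds, of at least 1.08-fold for Aif1 and at least 1.16-fold for Flt3, toward lower expression.

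The C1q genes encode the chains of the first component of the classical complement pathway, which tissue macrophages make, and they lie next to each other in the genome with no other protein-coding gene between them. C1qa had 167 in the wild-type pool and 215 in the transgenic pool, C1qb 120 and 162, and C1qc 120 and 162. The log2 ratios of 0.37, 0.42 and 0.44 were close to each other, and each exceeded the pooled SD between probe sets. Each was above at least 88.0% of all measured genes and remained below 1.5-fold. C1qb was read by 2 further probe sets, which gave 0.34 and −0.32, so the direction for this chain depended on the probe set.

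Receptors for the Fc part of IgG had small positive ratios where they were measured. Fcgr2b, the inhibitory receptor of macrophages and B cells, had 134 in the wild-type pool and 166 in the transgenic pool, a log2 ratio of 0.31. Its 3 other probe sets gave 0.51, 0.27 and −0.17, a range that crosses 0. Fcgr3, an activating receptor, had 71.9 and 86.0, a log2 ratio of 0.26. Fcgr1, the high-affinity receptor, was below the floor at 10.3 and 10.2. Fcgr2b is also carried by B cells, and B cell markers were higher in the same pool, as given below with the other cell types. Their part in this ratio was not tested.

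Among receptors for microbes and modified lipids, Clec7a stood highest. Clec7a (1420699_at) encodes dectin-1, the receptor for fungal β-glucan, and it read 12.5 in the wild-type pool, under the floor, against 31.4 in the transgenic pool, a difference of at least 1.59-fold. It counts as measured only through the transgenic array, so a gene like it could enter the measured set only with a ratio above 1. Clec4n, the gene of dectin-2, which binds fungal mannans, had 31.5 and 37.5, a log2 ratio of 0.25, whereas its other probe set gave a bound of −0.31. Both dectin genes were thus read close to the floor.

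Cd14, the co-receptor for bacterial lipopolysaccharide, was well above the floor at 273 in the wild-type pool and 286 in the transgenic pool, a log2 ratio of 0.07. The scavenger receptor genes were weak or below the floor. Msr1 barely passed, with 15.2 and 19.9, and its 3 other probe sets were below the floor on both arrays. Marco had 0.729 and 0.516, and Siglec1, the sialic acid receptor of metallophilic macrophages, had 8.06 and 2.90, with its 2 other probe sets also below the floor. No ratio is given for these.

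The receptors for dying cells among the members had nearly equal levels in both pools. Mertk and Axl encode receptor tyrosine kinases that recognise apoptotic cells through bridging proteins. Mertk had 123 in the wild-type pool and 130 in the transgenic pool, a log2 ratio of 0.08, and Axl had 141 and 147, a log2 ratio of 0.06. Apoe, the lipid carrier of macrophages and several other cell types, had 604 and 722, a log2 ratio of 0.26. Trem2, a lipid receptor of macrophages and microglia, stayed under the floor in both pools, at 16.9 and 1.5.

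The lysosomal members were bright on both arrays. Ctss, the protease cathepsin S that trims the MHC class II invariant chain, had 1269 in the wild-type pool and 1265 in the transgenic pool, and its log2 ratio of −0.00493 was the only one among the measured members whose sign depended on the scaling, ranging from −0.02 to 0.02. Lgmn, the lysosomal protease legumain, had 170 and 205, a log2 ratio of 0.27. Ifi30, a thiol reductase that unfolds antigens and is induced by interferon-γ, had 562 and 661, a log2 ratio of 0.23. Lyz2, the lysozyme of myeloid cells, had 488 and 587, a log2 ratio of 0.27. These ratios were all within the pooled SD between probe sets. The neighbour of Lyz2, Lyz1, the closely related lysozyme of Paneth cells, had a log2 ratio of 0.20, and whether the Lyz2 probe set also reads Lyz1 was not tested.

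**Figure D2:**
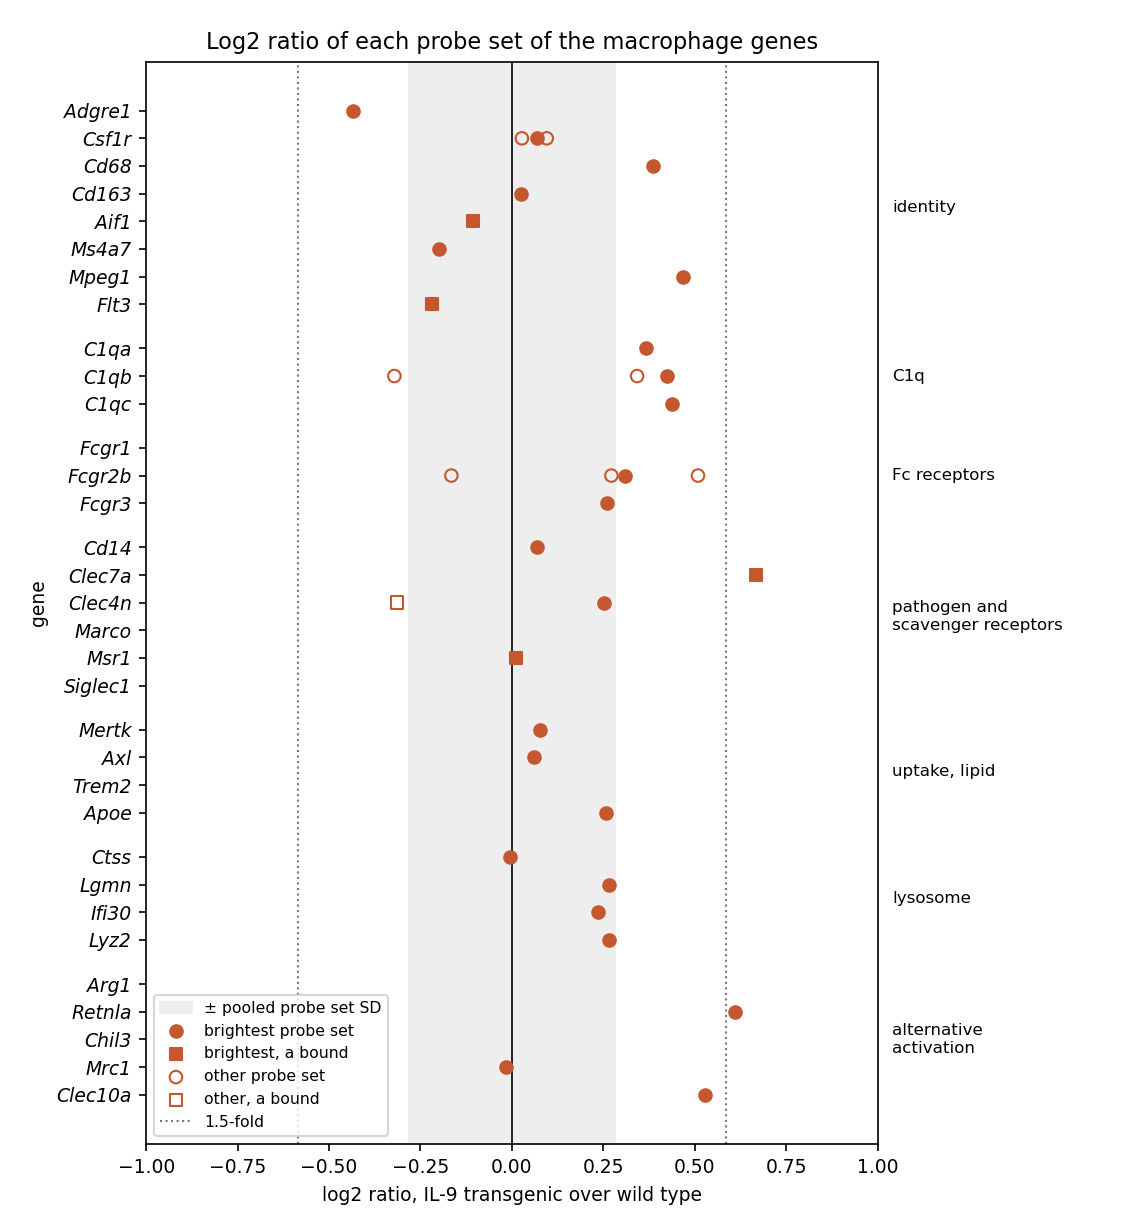
Log2 ratio of transgenic over wild type (horizontal axis) for every probe set above the floor on at least 1 array, with filled symbols for the brightest probe set of a gene, open symbols for the others and squares for bounds. The grey band is the pooled SD between probe sets of a gene (0.28) on either side of 0, and the dotted lines mark 1.5-fold. The probe sets of C1qb, Fcgr2b and Clec4n lie on both sides of 0, while the 3 of Csf1r lie together near 0.

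The alternative activation genes did not go together. Retnla (probe set 1449015_at), the gene of the secreted protein RELMα, had 117 in the wild-type pool and 178 in the transgenic pool, 1.53-fold higher, with a log2 ratio above 96.3% of all measured genes. Clec10a (1419605_at), a macrophage and dendritic cell lectin for galactose-type sugars, had 25.8 and 37.2, 1.44-fold higher and above 94.7% of genes, from a level close to the floor. Mrc1 (1450430_at), the mannose receptor, had 93.7 and 92.6, a log2 ratio of −0.02. So of 3 measured genes, 2 had ratios above 1 and 1 was nearly equal in both pools, and the median log2 ratio was 0.53, or 0.30 over Retnla and Mrc1 when the floor was raised to the 60th percentile. Retnla was the only one of the 3 at least 1.5-fold higher, beside 4.09% of all genes. The margin was narrow: its log2 ratio of 0.61 became 0.58 after loess normalisation, just under the threshold of 0.585.

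The remaining pair of standard markers was below the floor in both pools. Arg1, the enzyme that turns arginine into ornithine and urea, had 0.292 in the wild-type pool and 6.55 in the transgenic pool. Chil3, the chitinase-like protein Ym1, had 0.965 and 0.466, and a probe set shared by Chil3 and Chil4 had 2.70 and 3.22. No ratio is given for values this low, so a difference in Arg1 or Chil3 was not detectable on these arrays.

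Retnla has close relatives that share its stretch of the genome. Retnlb, the goblet cell gene next to it, had 2153 in the wild-type pool and 4314 in the transgenic pool, 2.0-fold higher. RELMα is made by epithelial and other cells as well as by macrophages, and its source in these pools was not measured. Whether the Retnla probe set also reads Retnlb was not tested. Both genes were higher in the transgenic pool, Retnla with the smaller ratio.

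**Figure D3:**
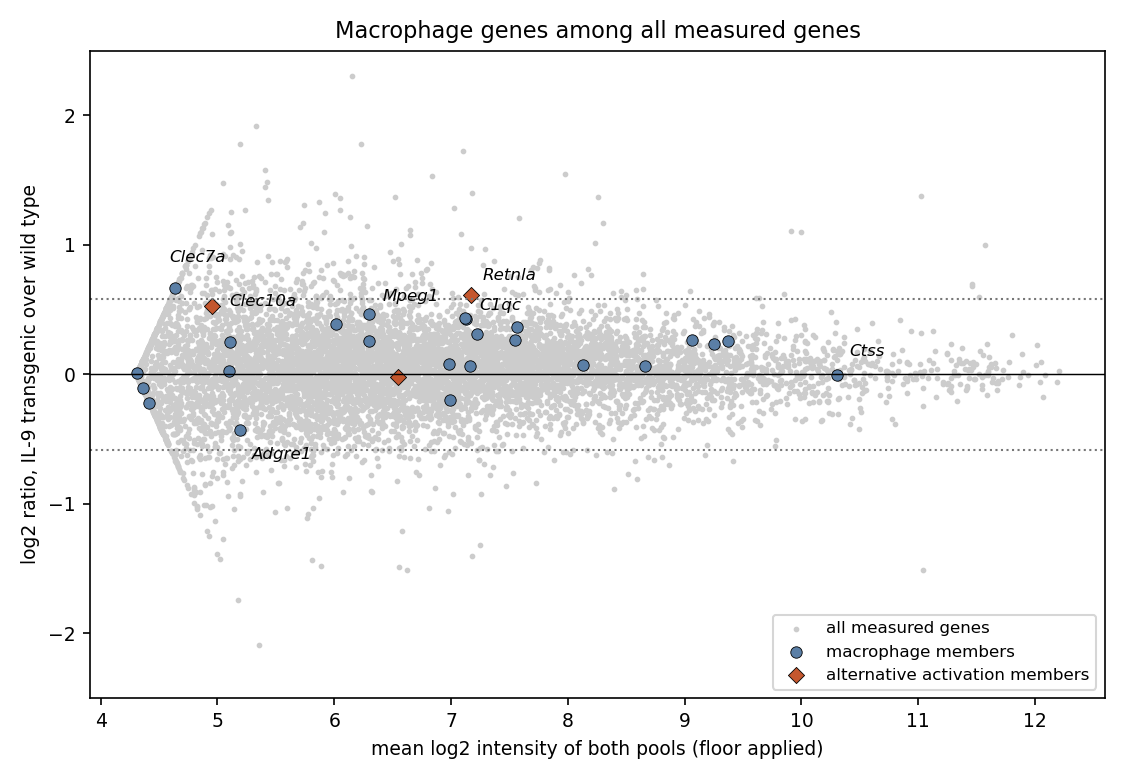
Log2 ratio of transgenic over wild type (vertical axis) against mean log2 intensity (horizontal axis) for all measured genes (grey), the macrophage members (circles) and the alternative activation members (diamonds). The dotted lines mark 1.5-fold, and 27 genes beyond a log2 ratio of 2.5 in size are outside the plotted range. The members lie within the grey cloud, with Clec7a and Retnla above the upper dotted line.

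Further genes of alternatively activated macrophages mostly had ratios near 1. Of 31 on the array 14 were measured, with a median log2 ratio of 0.08. At least 1.5-fold higher was 1, and 0 were lower by that factor, beside 4.09% and 2.85% of all genes. With the floor at the 20th percentile the median turned to −0.11 over 26 genes. Of these, 11 had a ratio above 1 and 3 were at least 1.5-fold higher, beside 52.8% and 7.09% of all genes at that floor. The gene that stood out was Ccl8, a monocyte-attracting chemokine of resident macrophages, with 39.8 in the wild-type pool and 104 in the transgenic pool, 2.62-fold higher. The next largest in size were Tgfb1 at 0.32, the coagulation factor gene F13a1 at 0.27 and the folate receptor gene Folr2 at −0.23. The other 17 were below the floor on both arrays.

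Genes that lead to alternative activation gave a mixed picture as well. Of 17 on the array 12 were measured, with a median of 0.16, or 0.00473 over 7 genes with the floor at the 60th percentile. At least 1.5-fold higher was 1 of the 12, beside 4.09% of all genes. The count was 0 when all probe sets were averaged or only genes above the floor in both pools were used. The 1 gene that passed was measured through the transgenic array alone. It was Il4ra, the receptor chain shared by interleukin-4 and interleukin-13, which was below the floor at 16.4 in the wild-type pool and reached 32.7, at least 1.65-fold higher. Pparg, a nuclear receptor of macrophages and colon epithelium, had 0.57 and the kinase gene Jak3 0.49, whereas Il33, an alarm cytokine, had a bound of −0.53. Stat6 itself, chosen after its value was seen, had 147 and 118, a log2 ratio of −0.31. The cytokine genes Il4 and Il13, also chosen after their values were seen, were below the floor in both pools.

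Genes of classical activation, which interferon-γ and bacterial products induce, were largely below the floor: 9 of 27 on the array were measured. Of these, 1 passed 1.5-fold upward and 1 downward, beside 4.09% and 2.85% of all genes. The median was 0.20, or 0.39 over the 7 genes above the floor in both pools. The subunits of the phagocyte oxidase, which makes superoxide, were higher, with log2 ratios of 0.68 for Ncf4, 0.53 for Cyba and 0.52 for Cybb. Ptgs2, the inducible cyclooxygenase, went from 48.5 in the wild-type pool to 29.8 in the transgenic pool, a log2 ratio of −0.70. Members of the alternative and the classical lists were thus found on both sides of 1.

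Growth and lineage factors, monocyte genes and general phagocyte functions had small medians. The growth and lineage list (11 measured) had a median of 0.09. It had 0 members at 1.5-fold, beside 4.09% of all genes higher and 2.85% lower. The transcription factor genes Id2 and Irf8 had −0.40 and 0.39. Of 9 monocyte genes on the array 4 were measured, with a median of 0.21. They were S100a4 and the fractalkine receptor gene Cx3cr1 at 0.27, Lgals3 at 0.15 and Plac8 at −0.16. Ccr2 and Itgam, chosen after their values were seen, were below the floor in both pools. Lysosomal genes (15 measured) had a median of 0.14, with Lamp2, a lysosomal membrane protein, at −0.70 and the cholesterol-binding protein gene Npc2 at 0.39. Genes of apoptotic cell uptake and lipid handling (15 measured) had a median of 0.12, with Mfge8, a bridging protein for dying cells, 1.55-fold higher. The median of this last list was −0.11 over 11 genes without probe sets that may bind several transcripts, so its sign depended on the probe sets used. With the floor at the 20th percentile, which brings in weaker genes, the growth and lineage median was 0.26. At that floor 3 of its 16 genes were at least 1.5-fold higher, beside 7.09% of all genes.

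A list of Fc receptor, adaptor, kinase and other leukocyte genes had a median of 0.23 over 11 measured genes. The median was 0.40 over the 9 above the floor in both pools. Beside 4.09% of all genes, 3 of the 11 were at least 1.5-fold higher. They were Laptm5 at 0.88, Itgb2, the common chain of the leukocyte integrins, at 0.61 and the kinase gene Syk at 0.61. Tyrobp, the adaptor DAP12, followed at 0.57. All 4 are also used by other leukocytes, and Laptm5 and Itgb2 count again in the list of genes carried by all leukocytes below. Fcer1g and Fgr, chosen after their values were seen, had −0.03 and a bound of −0.15, the only 2 of the 11 below 1.

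Several other lists of immune genes had larger medians than the macrophage members in the same pools. Others did not. Medians below the 0.24 of the members included the 4 measured monocyte genes at 0.21 and the Fc receptor and adaptor list at 0.23. They also included classical activation at 0.20, the genes that lead to alternative activation at 0.16 and the further alternative activation genes at 0.08. The genes carried by all leukocytes, and so by macrophages too, had a median of 0.88 over 11 measured genes. Of these, 9 were past 1.5-fold upward, beside 4.09% of all genes. The summed intensity of the 11 was 834 in the wild-type pool and 1667 in the transgenic pool. For MHC class II genes the median was 1.10, with 6 of 7 at least 1.5-fold higher and sums of 1671 and 3677. B cell genes had a median of 1.14, with 5 of 6 at least 1.5-fold higher and sums of 187 and 433. With the floor at the 60th percentile the B cell median was 0.49. At that floor 1 of 5 genes was at least 1.5-fold higher, beside 2.48% of all genes. Pax5, Blk and Fcer2a, chosen after their values were seen, were below the floor. The measured macrophage members had sums of 5078 and 5678. At least 2-fold higher were 3 of the leukocyte genes, 4 of the MHC class II genes and 4 of the B cell genes, beside 0.767% of all genes. Of the macrophage members 0 were, with bounds counted as they stand, which is near that share.

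Dendritic cell genes lay between, with a median of 0.52 over 8 measured genes. At least 1.5-fold higher were 4 of the 8, beside 4.09% of all genes, or 3 after median scaling, quantile normalisation or loess. With all probe sets averaged the median was 0.29, and with the floor at the 20th percentile 0.34. Among the 5 genes above the floor in both pools 2 were at least 1.5-fold higher, beside 3.77% of all such genes. The integrin gene Itgae (CD103) was 2.25-fold higher, from 19.9, barely above the floor of 19.8, to 44.7. Itgax (CD11c) was at least 2.13-fold higher. Ly75, an endocytic receptor, was at least 1.79-fold higher, and like Itgax it was measured through the transgenic array alone. Cd209a, Bst2 and Cst3, chosen after their values were seen, had a bound of −0.20 and log2 ratios of 0.09 and 0.13. Cd209a was the only 1 of the 8 with a ratio below 1. Xcr1, Zbtb46 and Ccr7, chosen after their values were seen, were below the floor. Of 10 measured mast cell genes, 5 exceeded the floor in the transgenic pool alone, so their ratios are bounds that had to lie above 1. The list median was 1.31 with these bounds and 0.45 over the other 5 genes. Of those 5, 1 was at least 1.5-fold higher, beside 3.77% of all genes above the floor in both pools. Of 12 T and NK cell genes on the array, 7 exceeded the floor in the transgenic pool and 0 in the wild-type pool. A ratio for these 7 had to lie above 1, so no median or sum is given. Over all genes, 7770 of the 8346 measured were above the floor in both pools.

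Granulocyte and pancreatic lists were also set beside the members. Of 11 neutrophil genes on the array 2 were measured, and of 7 eosinophil genes 0. Genes of the exocrine pancreas were at least 2-fold lower in all 10 measured cases, beside 0.611% of all genes. Their sums were 28811 in the wild-type pool and 1591 in the transgenic pool. Of these 10 genes, 8 exceeded the floor in the wild-type pool alone, so their ratios are bounds that had to lie below 1. The other 2 were above the floor in both pools. The part of any of these tissues or cells in the macrophage ratios was not tested.

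**Figure D4:**
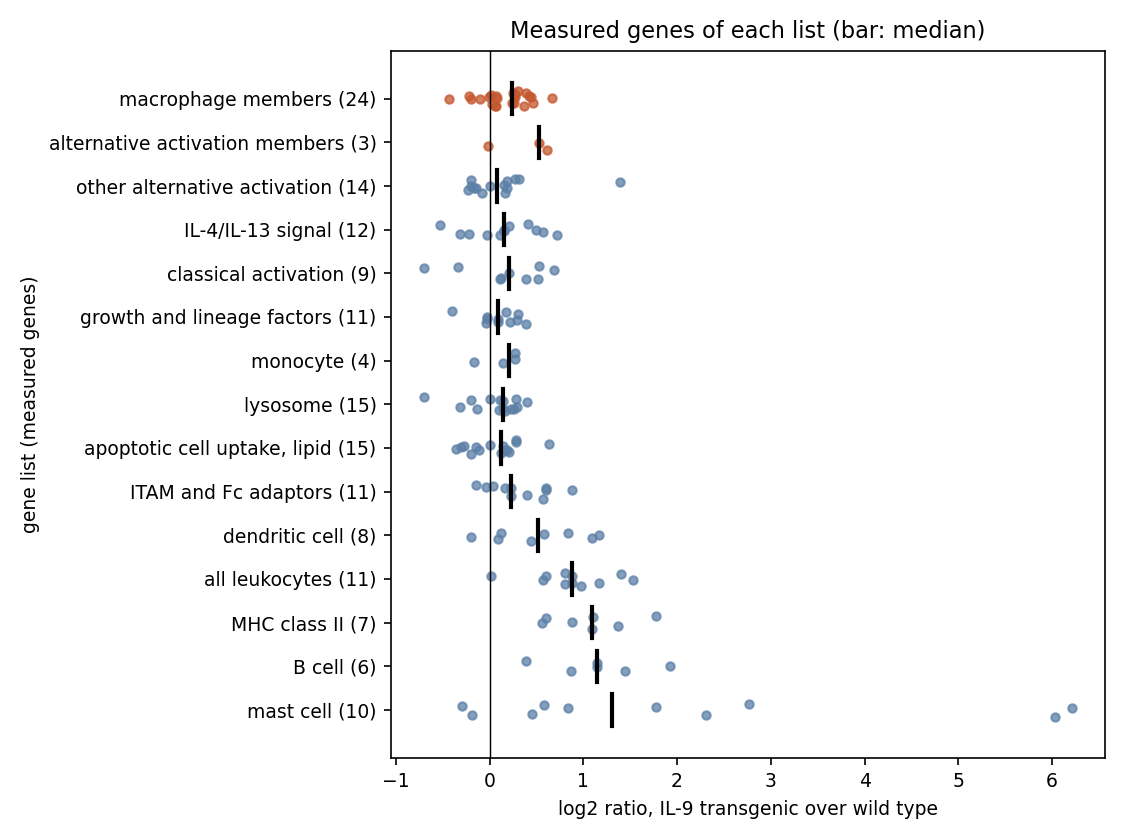
Log2 ratio of transgenic over wild type (horizontal axis) for each measured gene of 15 lists, 1 point per gene, with the list median as a bar and the number of measured genes in brackets; genes below the floor on 1 array are shown at their bound. The macrophage members centre on 0.24, below the medians of the leukocyte (0.88), MHC class II (1.10) and B cell (1.14) lists.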

How the data were processed

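The deposited table holds 1 intensity per probe set and array for 22690 probe sets, 64 of them controls. Per the submitters' processing notes the authors made these intensities with MAS5 (version not given in the sources used here), which subtracts background and mismatch signal and makes low values unstable. The mean after trimming 2% at each end was 100.04 on both arrays, so no further scaling was applied. Detection calls were not used here.

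Of 22626 other probe sets, 20380 had 1 gene symbol, 691 several and 1555 none. The brightest single-symbol probe set stood for its gene. Gene identifiers of all 33 members matched the RefSeq table of GRCm38.p6. Coordinates are given only for RefSeq upstream windows. Log2 ratios were computed from the deposited intensities in Python 3.11.15 with pandas 2.3.3. The procedure was tested on simulated data.

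All members are reported. From the 19 other lists, up to 4 measured genes with the largest ratios in size could be named, and other names are marked. Members and lists were chosen with earlier results of these data known. The alternatives were 3 other scalings, floors at the 20th and 60th percentiles, no floor with a pseudocount of 0.735, the mean of all probe sets, no probe sets that may bind several transcripts and, added after seeing the data, genes above the floor on both arrays.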

Additional observations from a re-analysis of the deposited data

How the results depend on the processing

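The median of the macrophage members stayed between 0.22 and 0.26 under the alternatives, except when all probe sets of a gene were averaged, where it was 0.11. The number at least 1.5-fold higher became 0 when the floor was raised to the 60th percentile and when only genes above the floor on both arrays were used, since Clec7a then dropped out, and was otherwise 1. For the alternative activation genes the median became 0.38 over 4 genes when the floor was lowered to the 20th percentile and 0.30 over 2 genes at the 60th percentile, where 1 gene had a ratio above 1. The number at least 1.5-fold higher became 0 under loess. Of 226 single-gene values under alternatives, 7 moved by more than the pooled SD between probe sets. With the lower floor and with no floor, respectively, Clec7a had 1.34 and 1.29, Flt3 −0.98 and −0.94, Msr1 0.39 and 0.37, and Clec4n −0.03 with the mean of its probe sets. Values near the floor limit what can be said of these genes. No paired analysis was possible because each group has 1 pool.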
